A study of Mus musculus with 15 samples.

Results

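Transcripts of 10 genes of the circadian clock were followed in the gastrocnemius of individual aged mice: Arntl, Clock, Npas2, Per1, Per2, Per3, Cry2, Nr1d1, Nr1d2 and Dbp. They were listed by name, and each symbol matched 1 Ensembl gene among the 55450 genes of the deposited count table. All 10 were among the 16920 genes that had enough counts to be tested. The mice were female C57BL/6JN and over 17 months old, and RNA-seq libraries of polyA RNA came from 15 of them, 1 library per mouse. Labels of robust or frail correspond to the Low and High frailty groups, set by how many of 5 performance and health markers were positive. Control mice stayed in their cages, whereas Run mice ran downhill (22 degree decline, 13 m/min) in 2 bouts, with the muscle taken 24 h after the last. There were 4 mice each in Low Control, Low Run and High Run and 3 in High Control, and mice are named here by the numbers in their labels, for example D9. The hour at which each muscle was collected is not given in the sources used here.

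In the clock, the proteins of Arntl (BMAL1) and Clock, or its paralog Npas2, pair and switch on genes through E-box sequences. Among those genes are Per1, Per2, Per3 and Cry2, whose proteins inhibit that pair, and Nr1d1 and Nr1d2 (REV-ERBα and REV-ERBβ), which repress Arntl through RORE sequences. Dbp, a further E-box target, encodes a transcription factor that acts on D-box sequences and carries the rhythm to output genes. In skeletal muscle, as in other peripheral tissues, Arntl and Dbp cycle roughly in antiphase over the day, and glucocorticoids, feeding, activity and temperature can each shift or induce parts of the loop.

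The sequences below show, in capitals, where these elements occurred in the promoters of members, as background to the loop that the values describe. The windows ran from 250 bases before to 50 bases after a transcription start in RefSeq (GRCm38.p6), and 9 of the 10 members (all but Per2) matched, with 13 windows in all. The letters searched, on both strands, were CACGTG and its variant CACGTT (E-box), TTATGTAA and TTATGCAA (D-box) and TAGGTCA (RORE core). For Per1 the stretch at chr11:69098699-69098948, plus strand, held an E-box 166 bases and a D-box 24 bases before the start. For Per3 the stretch at chr4:151044786-151044885, minus strand, held 2 D-boxes, 205 and 158 bases before the start. For Arntl the stretch at chr7:113207526-113207555, plus strand, held a RORE core 30 bases after the start.
Per1: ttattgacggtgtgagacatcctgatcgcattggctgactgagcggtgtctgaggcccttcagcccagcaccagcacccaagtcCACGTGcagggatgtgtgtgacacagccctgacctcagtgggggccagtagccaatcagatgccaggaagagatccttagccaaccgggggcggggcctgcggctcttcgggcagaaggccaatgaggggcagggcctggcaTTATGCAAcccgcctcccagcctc
Per3: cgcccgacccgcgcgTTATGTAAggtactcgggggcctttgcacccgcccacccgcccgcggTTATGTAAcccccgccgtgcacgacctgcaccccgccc
Arntl: agggaaggcagaaagTAGGTCAgggacgga

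Variant E-boxes were also found in the windows of Cry2, 166 bases before the start, and Nr1d1, 28 bases before it. Of all 32851 RefSeq promoter windows, 7.15% held CACGTG, 4.68% CACGTT, 0.938% TTATGTAA, 0.743% TTATGCAA and 2.61% TAGGTCA, so that each match is a description of the letters and says nothing of binding. The windows of Clock, Npas2, Nr1d2 and Dbp held none of these letters.

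Compared per length, as CPM (counts scaled to library size) per kb of exon, the members fell into 3 ranges of level. Nr1d1 had the highest median over the 15 mice at 45.8 CPM per kb, followed by Dbp at 36.6, Per1 at 22.1, Nr1d2 at 20.4 and Cry2 at 11.3. Per2 (4.15), Per3 (3.95), Arntl (2.14) and Clock (2.00) were lower, and Npas2 was lowest at 0.140 CPM per kb, with between 1 and 44 counts per mouse. Neighbors in this order overlapped in their ranges over mice except at 2 places: the lowest Cry2 value (9.46) lay above the highest Per2 value (5.45), and the lowest Clock value (1.502) above the highest Npas2 value (0.354). Counting error is thus largest for Npas2. The Arntl gene lies on chromosome 7 at 113207465 to 113314126 on the plus strand, and Dbp on the same chromosome at 45705088 to 45710203, also on the plus strand (GRCm38). Dbp shares 737 bases with Sphk2 and Nr1d1 shares 1075 bases with Thra, in each case on the opposite strand, and the authors counted reads by strand. On the same strand, Per3 shares 41014 bases with the protein-coding gene Camta1, and Clock shares 4176 bases with Gm43658. Clock and Npas2 also each overlap a processed pseudogene on their own strand. Counting by strand does not separate such pairs, and whether their exons overlap was not examined.

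Total counts ranged from 19395125 to 30699216 per mouse, without a split between the groups. Low Control mouse D9 and High Run mouse D62 stood apart from the other 13 mice on the first principal component (D9 at -76.0, D62 at -49.3, the others from -14.4 to 19.7). It was taken from the deposited variance-stabilized values of all genes that varied, and held 26.0% of the variance. These libraries were not shallow, with 25992635 and 30699216 counts, and their 10 most abundant genes took 20.3% and 20.5% of the counts, against 21.8% to 26.5% in the others. Muscle fiber markers were abundant in every mouse (Ckm, Acta1, Myh4, Myh1, Myh2 and Pvalb, summed level 84978 to 149026 CPM), and none of the 35 marker genes of 8 cell and fiber types was at 0 in any mouse. In whole muscle, fewer cells of a type and less RNA per cell cannot be told apart. The comparisons between groups and the correlations below are therefore also given without both, a choice made after seeing the data.

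Arntl, the positive-arm gene without which the loop stops, varied widely within groups. In Low Control mice Arntl was at 25.6 CPM in D8, 73.8 in D9, 10.3 in D11 and 17.4 in D98, and in Low Run mice at 18.0 in D57, 7.42 in D61, 16.1 in D66 and 14.0 in D68. In High Control mice it was at 30.6 CPM in D23, 11.9 in D25 and 13.2 in D67, and in High Run mice at 18.8 in D49, 13.1 in D52, 12.3 in D53 and 37.5 in D62. D9 and D62 held the highest values, D23 and D8 came next, and all 4 groups overlapped.

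Clock, the DNA-binding partner of BMAL1, moved over a narrower range. D9 was again highest at 58.2 CPM and D62 second at 40.2 CPM, and the other 13 mice lay between 20.6 and 33.7 CPM. The group means of Clock were 36.2 ± 14.8 CPM for Low Control mice (SD, n = 4), 24.6 ± 2.85 CPM for Low Run mice (n = 4), 26.9 ± 6.5 CPM for High Control mice (n = 3) and 28.6 ± 9.31 CPM for High Run mice (n = 4). For Npas2, the paralog that can replace Clock, D9 (1.70 CPM) and D62 (1.39 CPM) were also the 2 highest, but the next mouse, D8 at 1.35 CPM, was close to them.

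Per1, a period gene that also answers acutely to glucocorticoids and to cAMP signals, was at 231 CPM in D8, 340 in D9, 147 in D11 and 76.9 in D98 of the Low Control mice. In Low Run mice Per1 lay close together, at 95.6 CPM in D57, 122 in D61, 96.3 in D66 and 115 in D68. In High Control mice it was at 194 CPM in D23, 169 in D25 and 125 in D67, and in High Run mice at 124 in D49, 135 in D52, 92.2 in D53 and 289 in D62. The groups overlapped, with both the highest and the lowest Per1 value among the Low Control mice.

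Cry2, a cryptochrome that inhibits the BMAL1 and CLOCK pair, set D9 and D62 apart from all other mice. Cry2 was at 100.1 CPM in D8, 338 in D9, 86.1 in D11 and 70.6 in D98 of the Low Control mice, and at 64.7, 78.6, 69.5 and 63.0 CPM in Low Run mice D57, D61, D66 and D68. It was at 72.4, 71.7 and 59.8 CPM in High Control mice D23, D25 and D67, and at 69.2, 88.7, 60.7 and 234 CPM in High Run mice D49, D52, D53 and D62. Outside D9 and D62 the whole range of Cry2 was 59.8 to 100.1 CPM, whereas D9 was 4.78-fold and D62 3.32-fold above the median of those 13 mice.

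Dbp, the clock output gene, went the opposite way to Arntl. Dbp was at 71.6 CPM in D8, 18.2 in D9, 183 in D11 and 106 in D98 of the Low Control mice, and at 139, 175, 113 and 102 CPM in Low Run mice D57, D61, D66 and D68. In High Control mice it was at 59.9 CPM in D23, 109 in D25 and 140.0 in D67, and in High Run mice at 89.0 in D49, 145 in D52, 137 in D53 and 22.99 in D62. D9 and D62 were the 2 lowest, at 0.161 and 0.203 of the median of the other 13 mice, followed by D23, D8 and D49, so that the 5 mice lowest in Dbp were the 5 highest in Arntl, in the same order.

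The other period genes did not share one pattern. Per3, whose protein is a weaker part of the repressor complex, was lowest in D9 at 15.8 CPM, whereas the other 3 Low Control mice were at 40.4 (D8), 45.3 (D11) and 42.6 CPM (D98). D62 was at 26.6 CPM, ranking 13 of 15 mice and just above D23 at 24.8 CPM. Per2, which is central to the repressor complex, ranged from 10.8 CPM in High Control mouse D23 to 31.9 CPM in Low Run mouse D61, with D9 (24.3 CPM) and D62 (27.2 CPM) in the middle.

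The REV-ERB genes showed little of the D9 and D62 pattern. Nr1d1 was highest in D9 at 249 CPM, but D62 at 122 CPM ranked 11 of 15, and D23 (245 CPM) and D8 (225 CPM) were nearly as high as D9. Nr1d2 stayed between 91.1 and 143 CPM in all mice, the narrowest range of any member relative to its level, with D9 at 110.5 CPM and D62 at 105 CPM.

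**Figure D1:**
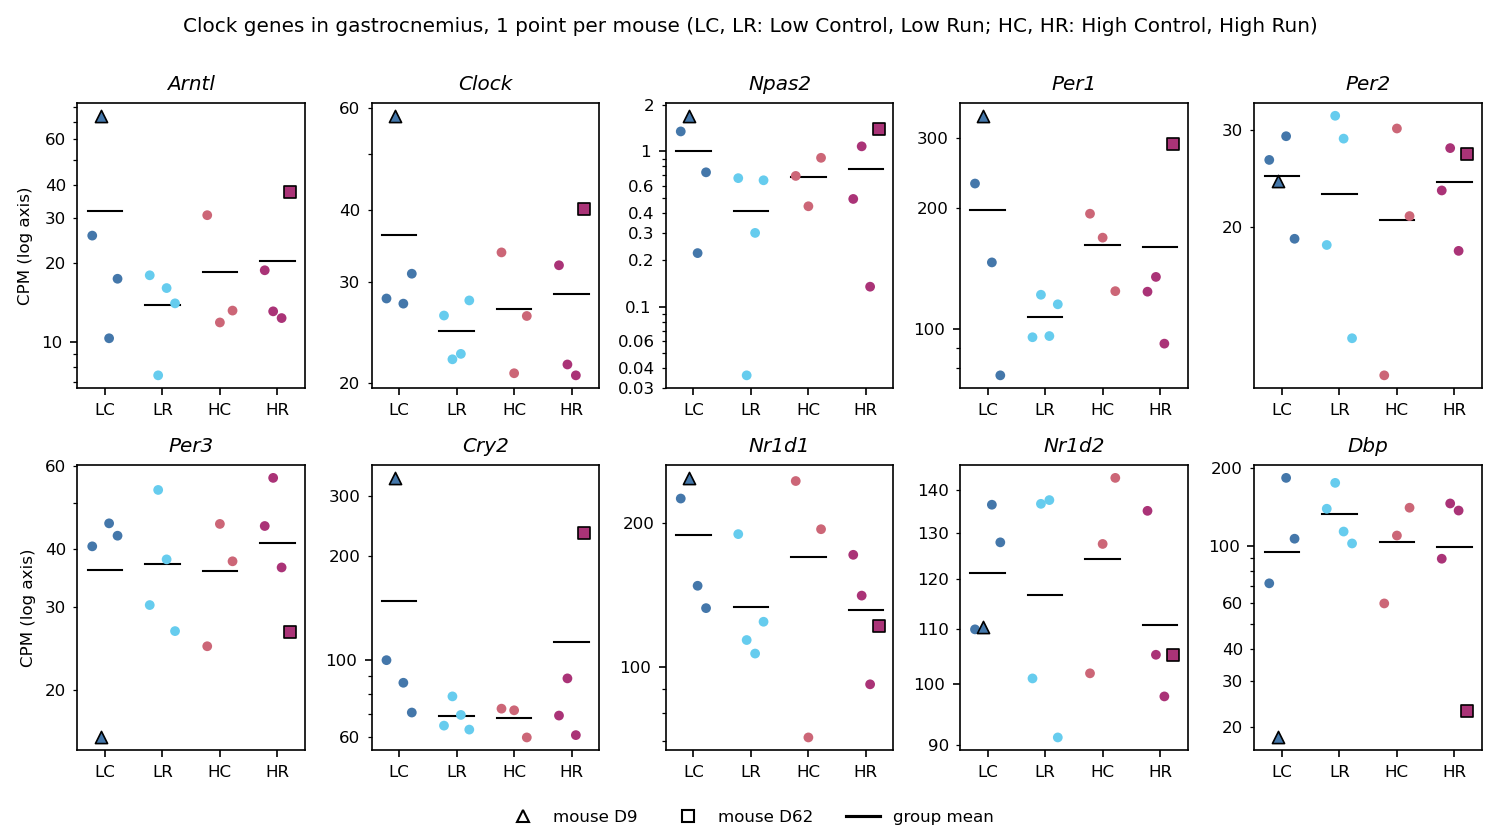
Level of each of the 10 clock genes (CPM, log axis) in the 15 mice by group, with 1 point per mouse and the group mean as a bar; the triangle is Low Control mouse D9 and the square High Run mouse D62. D9 and D62 are the 2 highest mice for Arntl, Clock, Npas2, Per1 and Cry2 and the 2 lowest for Dbp.

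D9 and D62 were thus the 2 highest mice for 5 of the 10 members and the 2 lowest for 1. Over all 16920 tested genes, 13.4% had these mice as the 2 highest and 11.5% as the 2 lowest, so that this order was also seen in many genes outside the clock. Relative to the median of the other 13 mice, D9 was 5.26-fold and D62 2.67-fold higher in Arntl, and 2.74-fold and 2.33-fold higher in Per1. These 2 mice come from different frailty groups and differ in running as well.

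**Figure D2:**
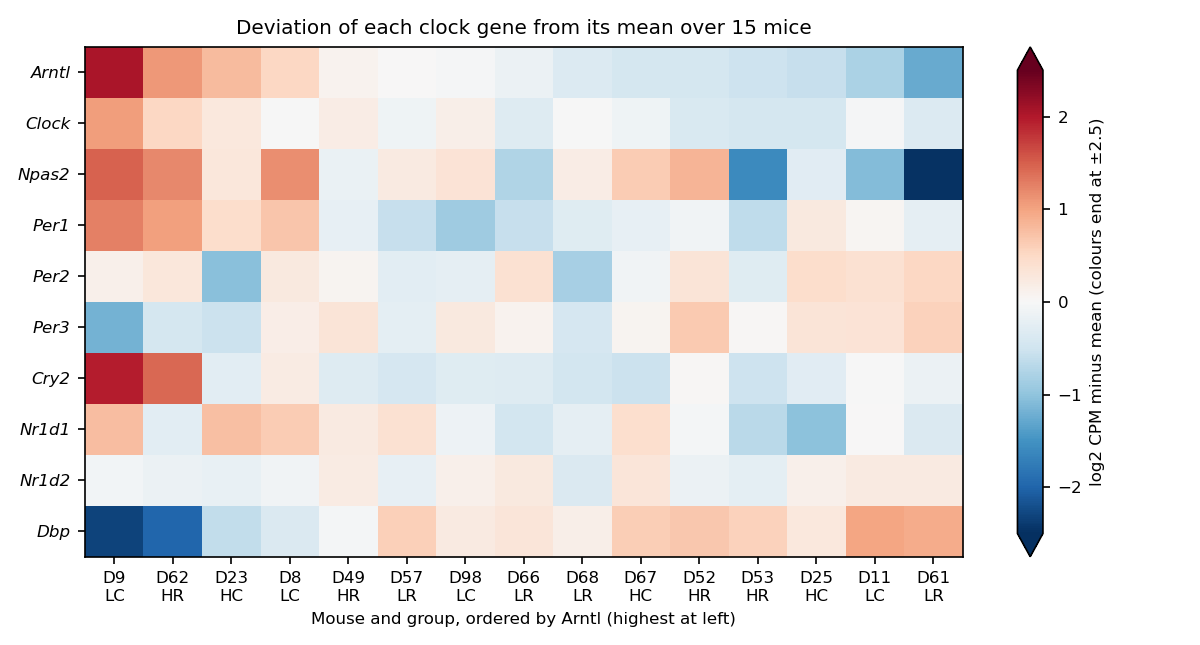
Deviation of each clock gene (log2 CPM minus its mean over the 15 mice, colors) in each mouse, with mice ordered by Arntl from the highest at left and their group below the number (LC and HC for Low and High Control, LR and HR for Low and High Run). Dbp runs from blue to red as Arntl runs from red to blue, and the strong red of Cry2 is limited to D9 and D62.

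To describe how the members varied together over mice, Arntl was correlated with the other 9 members over log2 CPM. The p-values came from 100000 two-sided permutations of the mice, adjusted over the 9 pairs and called at 0.05. Dbp had the strongest relation (Pearson r = -0.936, adjusted p = 9e-05, Spearman rho = -0.868, adjusted p = 0.00072, n = 15), and its unadjusted p of 1e-05 is the smallest these permutations can give. Clock (r = 0.887, adjusted p = 0.00018, rho = 0.839, adjusted p = 0.00072) and Npas2 (r = 0.745, adjusted p = 0.0043, rho = 0.739, adjusted p = 0.0072) went with Arntl. Per3 went against it (r = -0.814, adjusted p = 0.00141, rho = -0.711, adjusted p = 0.00958). Nr1d1 went with Arntl more weakly (r = 0.592, adjusted p = 0.0242, rho = 0.596, adjusted p = 0.0378). The share of all genes that would pass this test was not computed, here or for the correlations without D9 and D62 or within groups. Ranks of the members among all genes are given below.

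Per1 and Cry2 were related to Arntl by Pearson's r only. The coefficients were r = 0.710 (adjusted p = 0.00453) and rho = 0.414 (adjusted p = 0.163) for Per1, and r = 0.773 (adjusted p = 0.00453) and rho = 0.325 (adjusted p = 0.262) for Cry2. Neither Per2 (r = -0.195, adjusted p = 0.486, rho = -0.432, adjusted p = 0.163) nor Nr1d2 (r = -0.356, adjusted p = 0.222, rho = -0.293, adjusted p = 0.290) passed the test by either measure. By r, Per1, Cry2 and Nr1d1 thus went the same way as the positive-arm genes Clock and Npas2, and Dbp and Per3 the other way. A difference in phase between the mice was not tested.

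The 2 mice farthest from the median of Arntl were D9 and D62. Without them (n = 13) Dbp still went against Arntl (r = -0.882, adjusted p = 0.00081, rho = -0.797, adjusted p = 0.0167). Clock (r = 0.669, adjusted p = 0.033), Npas2 (r = 0.681, adjusted p = 0.033) and Nr1d1 (r = 0.657, adjusted p = 0.0342) also still passed by r, Npas2 and Nr1d1 no longer by rho (adjusted p = 0.0641 and 0.0507). The relations of Cry2 (r = 0.0813, adjusted p = 0.793, with rho turning to -0.0385) and Per1 (r = 0.315, adjusted p = 0.333) rested on those 2 mice, and that of Per3 (r = -0.567, adjusted p = 0.0763) no longer passed.

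The relations were also taken within groups. With each mouse taken as its deviation from its group mean and permuted within its group, Dbp (r = -0.933, adjusted p = 0.00333), Per3 (r = -0.879, adjusted p = 0.00615), Clock (r = 0.873, adjusted p = 0.00545) and Npas2 (r = 0.707, adjusted p = 0.0199) still passed. Cry2 (r = 0.745, adjusted p = 0.0551), Per1 (r = 0.669, adjusted p = 0.0663) and Nr1d1 (r = 0.551, adjusted p = 0.0663) then did not by r. By rho Nr1d1 still passed (0.654, adjusted p = 0.0353), while Cry2 (0.525, adjusted p = 0.0922) and Per1 (0.561, adjusted p = 0.0922) did not.

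**Figure D3:**
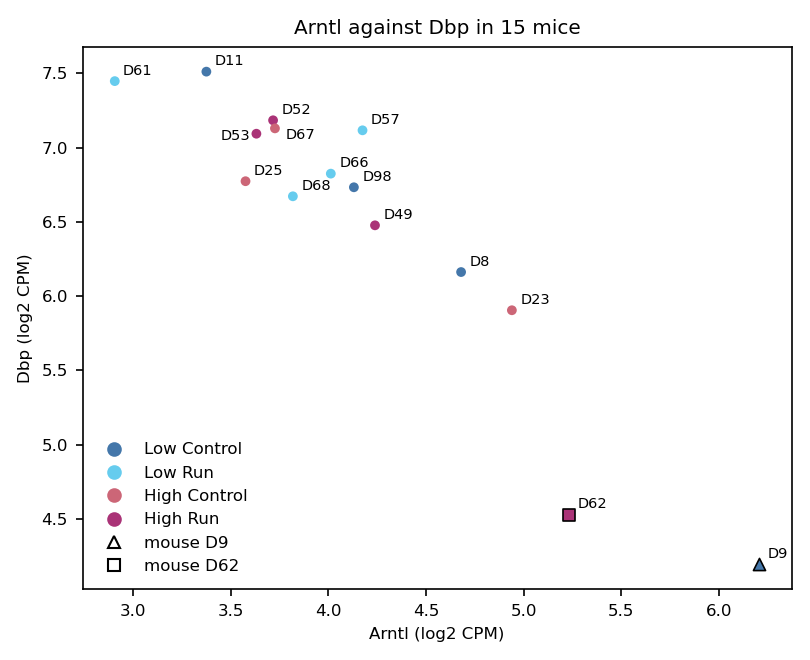
Dbp against Arntl (both log2 CPM) in the 15 mice, colored by group, with D9 as a triangle and D62 as a square. The points fall along one descending line (r = -0.936) on which the groups are mixed, and D9 and D62 lie at its lower right end.

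As a description of likeness over the same 15 mice, Dbp had the most negative r with Arntl of all 16920 tested genes, and Clock ranked 30 from the positive end. The other members stood less far out, with Per3 at rank 16745, Cry2 at 670, Npas2 at 930, Per1 at 1283 and Nr1d1 at 2401, so that 85.8% of all genes had a lower r with Arntl than Nr1d1. Many genes were thus related to Arntl over these mice. The other genes most like Arntl were Zfp292 (r = 0.937), Prpf19 (0.927), Chd7 (0.923), Oser1 (0.920) and Sec24a (0.919), and those most opposed to it besides Dbp were Mfsd13a (-0.926), Fmo5 (-0.912), Acsl5 (-0.909), Paqr7 (-0.908) and Bloc1s6 (-0.905). For Dbp the most alike were L3hypdh (0.937), Fstl1 (0.935), Naaa (0.928), Ttll1 (0.927) and Paqr7 (0.925), and the most opposed were Tle1 (-0.957), Prpf19 (-0.956), Oser1 (-0.949), Wdr5 (-0.948) and Rab14 (-0.947). D9 and D62 pull all of these coefficients, and without them Zfp292 was at 0.816 with Arntl and Tle1 at -0.762 with Dbp.

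Among the negative-arm genes themselves, Per2 and Per3 were more alike without D9 and D62 (r = 0.873, n = 13) than with them (r = 0.481, n = 15). Per3 and Cry2 changed sign, from r = -0.582 over 15 mice to r = 0.503 over 13. Nr1d1 and Nr1d2 were nearly unrelated either way (r = -0.129 and -0.125). These values are descriptions over mice that share the same normalization.

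The difference of Dbp minus Arntl within a mouse, in log2 CPM, gives the relation of output to positive arm on 1 scale. It was -2.01 in D9 and -0.71 in D62, and in the other 13 mice it ran from 0.97 in D23 and 1.48 in D8 to 4.14 in D11 and 4.54 in D61. As the levels of both genes are not taken per length here, only its differences between mice can be read.

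A broader measure, the arm difference, was taken as the mean deviation of Per1, Per2, Per3, Cry2, Nr1d1, Nr1d2 and Dbp minus that of Arntl, Clock and Npas2. It was lowest in D9 (-1.45), D62 (-0.94) and D23 (-0.65) and highest in D61 (1.57), D11 (0.92) and D53 (0.60). Its group means were -0.29 ± 0.97 for Low Control mice (SD, n = 4), 0.37 ± 0.85 for Low Run mice (n = 4), -0.05 ± 0.56 for High Control mice (n = 3) and -0.04 ± 0.65 for High Run mice (n = 4). Without D9 and D62 the means were 0.09 ± 0.71 for Low Control (n = 3) and 0.26 ± 0.31 for High Run (n = 3). All groups overlapped, and no test was made on this measure. Unequal collection time was not tested, since the sources used here give no hour for any mouse.

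**Figure D4:**
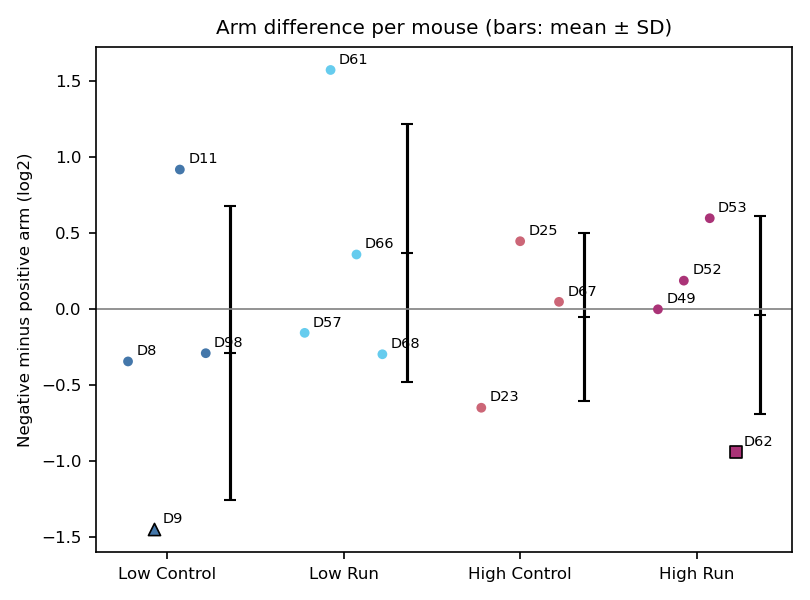
Arm difference per mouse (mean log2 deviation of 7 negative-arm and output genes minus that of 3 positive-arm genes) by group, with each mouse labeled and the mean ± SD beside the points. Both ends of the range lie in the Low mice (D9 at -1.45 in Low Control, D61 at 1.57 in Low Run), and every group spans 0.

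The arm difference averages over genes that went opposite ways. In D9 the high Per1 and Cry2 and the low Per3 and Dbp offset each other, to a mean deviation of 0.07 over the 7 negative-arm and output genes. In D61 the mean deviation of the positive arm (-1.36) leaned on Npas2, at 1 count in that mouse (deviation -2.47).

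The first question of the design was whether the clock genes differed 24 h after running in Low mice. By edgeR's quasi-likelihood test, 0 of 10 members passed an FDR of 0.1 in Low Run against Low Control, as did 0% of all genes tested. DESeq2's Wald test and voom with quality weights also called 0 members, but their calls over all genes are not given here. By edgeR at an unadjusted p under 0.05, 4 of 10 members were lower and 0 higher, against 13.4% of all genes in either direction. The 4 were Arntl (log2 fold change -1.20 ± 0.54 SE, unadjusted p = 0.0404, adjusted p = 0.362), Cry2 (-1.11 ± 0.47, unadjusted p = 0.0303, adjusted p = 0.358), Per1 (-0.89 ± 0.38, unadjusted p = 0.0343, adjusted p = 0.359) and Clock (-0.56 ± 0.26, unadjusted p = 0.0490, adjusted p = 0.369). No member had groups that did not overlap, against 6.93% of all genes.

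The remaining members were at log2 fold changes of -1.29 for Npas2, -0.50 for Nr1d1, -0.11 for Per2, -0.06 for Nr1d2, 0.04 for Per3 and 0.48 for Dbp, each with an unadjusted p of 0.0978 or more. The median over the members was -0.53, against 0.02 over all genes. Without D9 and D62 the median was -0.28, and 0 of 10 members had an unadjusted p under 0.05, against 7.33% of all genes in that fit, so that 0 of 10 is close to the background. Arntl was then at -0.37 ± 0.37 (unadjusted p = 0.334), Cry2 at -0.32 ± 0.15 (unadjusted p = 0.0537), Per1 at -0.51 ± 0.27 (unadjusted p = 0.0866) and Clock at -0.24 ± 0.18 (unadjusted p = 0.203). The number at that unadjusted p was likewise 0 with D9 alone left out and 0 with Low Run mouse D66 alone left out. The share of all genes at that p in those fits is not given here, so these counts have no background.

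In High mice, 0 of 10 members passed by edgeR in High Run against High Control, with 0% of all genes passing. By the same test 0 of 10 had an unadjusted p under 0.05, against 5.18% of all genes. The paper does report genes called after running in the High group by a Wald test, among them Ctss and Junb. The 0% is thus a background for edgeR only. For the members, DESeq2 and voom again called 0, and their calls over all genes are not given here. Cry2 had the largest log2 fold change at 0.74 ± 0.51 (unadjusted p = 0.164, adjusted p = 0.956), which was 0.09 ± 0.16 without D9 and D62, where again 0 of 10 members had an unadjusted p under 0.05, against 6.85% of genes. Arntl was at 0.14 ± 0.57, Per1 at -0.02 ± 0.41, Dbp at -0.07 ± 0.60 and Nr1d1 at -0.37 ± 0.35. The members had a median of 0.11, against 0.05 for all genes, and all overlapped between the groups, against 7.07% of genes that did not.

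**Figure D5:**
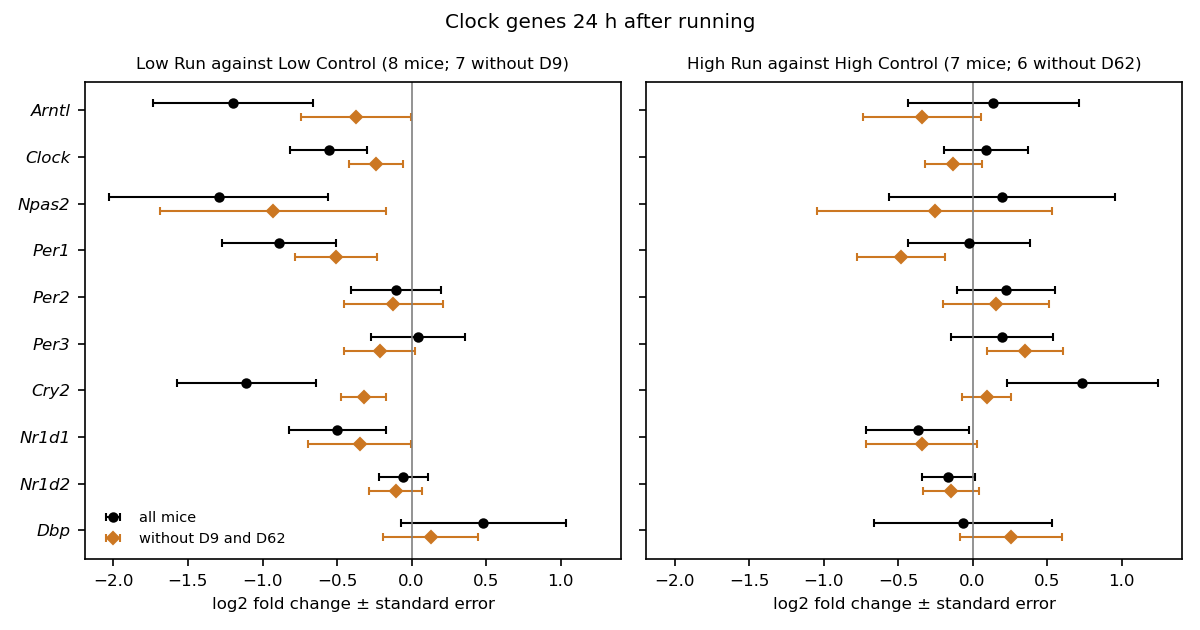
Log2 fold change ± standard error of each clock gene 24 h after running (edgeR), in Low mice at left and High mice at right, with all mice in black and without D9 and D62 in orange. In Low mice the black points of Arntl, Per1, Cry2 and Clock lie below 0 (Arntl at -1.20, Cry2 at -1.11), and the orange points lie nearer to 0 (Arntl at -0.37, Cry2 at -0.32).

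Whether running acted differently by frailty was asked by the Frailty × Run interaction. In it 0 of 10 members passed by edgeR, DESeq2 and voom, and 0% of all genes passed by edgeR. At an unadjusted p under 0.05 it held 1 member, Cry2 (1.84 ± 0.69, unadjusted p = 0.0167, adjusted p = 0.600), against 7.93% of all genes. Arntl was at 1.34 ± 0.79 (unadjusted p = 0.109) and Dbp at -0.55 ± 0.81 (unadjusted p = 0.511). A gene that is high in D9, of Low Control, and in D62, of High Run, gets a higher value in this term, and without both Cry2 was at 0.41 and Arntl at 0.03, with 0 of 10 members at an unadjusted p under 0.05, against 4.42% of genes.

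Frailty itself was compared among the control mice and among the mice that had run. In High Control against Low Control 0 of 10 passed (0% of genes), and Cry2 alone had an unadjusted p under 0.05 (-1.13 ± 0.51, unadjusted p = 0.0426, adjusted p = 0.704), against 5.86% of genes, while none separated the groups, against 10.4% of genes. In High Run against Low Run 0 of 10 passed (0% of genes), 0 had an unadjusted p under 0.05 (2.51% of genes) and none separated the groups (1.5% of genes). In both comparisons 0 members were called by DESeq2 or voom as well, but the calls of those methods over all genes are not given here. Without D9 and D62 the number with an unadjusted p under 0.05 by edgeR was 0, against 3.8% of genes among control mice and 2.73% among mice that had run. These comparisons share groups with those within each frailty group, so their values are not independent of them.

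Other genes of the loop were read from a list of 15, among them Cry1, Rora, Nfil3, Ciart, Bhlhe40, Bhlhe41, Tef, Hlf and the kinase and ubiquitin ligase genes that set the stability of PER and CRY proteins. Of these, 14 could be tested (Fbxl21 had too few counts), and 0 passed in any comparison. In Low Run against Low Control 3 of 14 were lower and 0 higher at an unadjusted p under 0.05, against 13.4% of all genes in either direction, with a median log2 fold change of -0.33. Without D9 and D62 these were 2 of 14, against 7.33% of all genes, with a median of -0.07. Fbxw11, which encodes an F-box protein that marks PER proteins for degradation, had an unadjusted p of 0.00806 there (log2 fold change -0.46 ± 0.15, adjusted p = 0.358). It lay at 75.9, 103, 69.1 and 81.3 CPM in the Low Control mice and at 60.0, 61.3, 64.1 and 54.1 CPM in the Low Run mice, without overlap, and without D9 and D62 its log2 fold change was -0.34 ± 0.13 (unadjusted p = 0.0183, adjusted p = 0.650).

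Cry1, the paralog of Cry2, did not share its pattern, at 15.6 CPM in D9, 15.4 in D62 and 13.6 to 23.8 in the other 13 mice. Rora, an activator at the RORE that the REV-ERB proteins repress, did stand out in those mice. Rora was at 635 CPM in D9 and 308 in D62, against 115 to 201 CPM in the others. Of the 14 genes tested from this list, D9 and D62 were the 2 highest mice for 5 and the 2 lowest for 3, beside 13.4% and 11.5% of all genes. Nfil3, a repressor at the D-box, was at 109 and 82.2 CPM, against 18.6 to 64.0 CPM, while Hlf, a relative of Dbp, was at 8.98 and 11.0 CPM, against 13.0 to 28.8 CPM. Tef, another relative of Dbp, was not low in them, at 342 CPM in D9 and 328 in D62, against 202 to 328 CPM. These genes, and those of the next paragraph other than Zbtb16, were picked for description after their values were seen.

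Some of the genes that answer to glucocorticoids, of the clock-controlled genes and of the temperature-responsive genes also set D9 and D62 apart. D9 and D62 were the 2 highest mice for 5 of 7 glucocorticoid-responsive genes (Fkbp5, Zbtb16, Klf9, Klf15 and Cebpd), beside the 13.4% of all genes given above. Sgk1 lay within the range of the other mice in both (182 CPM in D9, 287 in D62, others 126 to 348). Tsc22d3 did so in D9 (486 CPM, others 243 to 554) and lay above that range in D62 (657 CPM). Fkbp5, a cochaperone induced by the glucocorticoid receptor, was at 483 CPM in D9, 410 in D62 and 224 in D8, and at 24.1 to 134 CPM in the rest. Zbtb16, a zinc finger transcription factor induced by glucocorticoids, was at 459 CPM in D9, 306 in D62 and 245 in D8, and it had the only unadjusted p under 0.01 of that list, in Low Run against Low Control (log2 fold change -1.92 ± 0.59, unadjusted p = 0.00483, adjusted p = 0.358). Without D9 and D62 Zbtb16 was at -1.35 ± 0.46 (unadjusted p = 0.0104, adjusted p = 0.650).

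Pdk4, a clock-controlled kinase that limits glucose oxidation in fasting, was at 6837 CPM in D9 and 4684 in D62, against 130 to 2650 CPM in the other 13 mice. Of the 9 clock-controlled genes, these mice were the 2 highest for 4 and the 2 lowest for 2 (Wee1 and Usp2). Of the 6 temperature-responsive genes they were the 2 highest for Cirbp and Rbm3, which rise in the cold (Cirbp at 73.0 CPM in D9 and 131 in D62, against 33.4 to 64.8 CPM), and the 2 lowest for Hspa1b and Hsph1, which rise with heat. Hspa1a and Dnajb1 lay within the range of the other mice. Over all genes, 13.4% had D9 and D62 as the 2 highest mice and 11.5% as the 2 lowest. Feeding state, stress, temperature and hour of collection are not given per mouse in the labels, and their part in the values of D9 and D62 was not tested.

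Cell type markers moved with D62 more than with D9. The 4 Schwann cell markers summed to 254 CPM in D62 and 88.8 in D9, against 76.6 to 176 CPM in the others, and the 4 slow fiber markers to 3389 and 1677 CPM, against 1346 to 2936 CPM. The 6 fiber markers summed to 84978 CPM in D62, below the 99350 to 149026 CPM of the other 13 mice, and to 103040 CPM in D9. Fibroblast markers were at 541 CPM in D62 and 674 in D9, against 654 to 1175 CPM. Of these 4 markers, Col1a1 was at 13.3 CPM in D9 and 24.3 in D62, against 61.7 to 309 CPM. Col3a1 was at 12.5 and 19.6 CPM, against 40.7 to 141 CPM. In D9, Dcn (623 CPM, others 465 to 917) and Pdgfra (24.8 CPM, others 21.3 to 36.7) lay within the range of the other mice. In D62 Dcn did too (481 CPM), and Pdgfra lay below it (16.6 CPM).

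Markers also differed between groups at an unadjusted p under 0.05, although 0 were called. In High Run against High Control all 5 erythroid markers were higher (summed level 385 to 3860 CPM against 312 to 488 CPM), as were 3 of 4 macrophage, 2 of 4 slow fiber and 1 of 4 Schwann cell markers, and 1 of 6 fiber markers (Myh4) was lower. Over all genes 5.18% had an unadjusted p under 0.05 there. The erythroid sum was 3860 CPM in D53, 1335 in D62 and 953 in D49, but 385 in D52, within the High Control range. The macrophage gene Cd68 was at 1.01 ± 0.26 (unadjusted p = 0.00113, adjusted p = 0.956), without overlap. Without D9 and D62 all 5 erythroid and all 4 macrophage markers were higher at an unadjusted p under 0.05, against 6.85% of all genes in either direction. With all mice, all 5 erythroid markers were also higher at that p in High Run against Low Run (2.51% of all genes) and in the Frailty × Run interaction (7.93%). In High Control against Low Control 3 of the 5 were lower (5.86% of all genes). In Low Run against Low Control, Cidec of the adipocyte list (-1.04 ± 0.30, unadjusted p = 0.00333, adjusted p = 0.358) and Myh4 (-0.48 ± 0.17, unadjusted p = 0.0133, adjusted p = 0.358) were lower without overlap, and C1qa of the macrophage list was higher (0.63 ± 0.26, unadjusted p = 0.0262, adjusted p = 0.358). Of the 6 fiber markers, 4 went the other way to Myh4, with a list median of 0.13. Over all genes 13.4% had an unadjusted p under 0.05 in that comparison, and 6.93% did not overlap. The marker genes named here were picked after their values were seen. The part of cell makeup in the clock values was not tested.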

How the data were processed

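RNA-seq of gastrocnemius from 15 mice was used. For alignment to mm10 the authors used STAR 2.7.9a, and they counted uniquely aligned proper pairs per non-mitochondrial Ensembl gene on the same strand with featureCounts. The submitters' processing notes give Subread 2.0.3 for this step and the paper names another version. Which of them made the deposited counts is not known here. The deposited counts were not normalized. The deposited second table holds a variance-stabilizing transformation from DESeq2 on a log2-like scale, used here only for the principal components and as an alternative for correlations. Here counts were filtered by filterByExpr, normalized by TMM and tested with edgeR 4.0.16 in R 4.3.3 (quasi-likelihood F-test, 1 mean per group over all 15 mice, Benjamini-Hochberg adjustment over 16920 genes, FDR 0.1). The SE of a log2 fold change was its size divided by the square root of F. CPM used TMM-adjusted totals, and log2 CPM a prior count of 2. No column was left out.

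Correlations were tested in Python 3.11.15 with NumPy 2.4.6. Gene models and exon lengths came from GENCODE M21 (GRCm38), promoters from RefSeq. Alternatives were DESeq2 1.42.0, RLE normalization, no count filter, voom with quality weights (limma 3.58.1), a fit to only the 2 groups compared, an FDR of 0.05, each mouse left out, and, added after seeing the data, D9 and D62 left out. The members and gene lists were chosen with earlier results of these data known. All 10 members were named, and genes of the other lists by an unadjusted p under 0.01 in any comparison, besides those said to have been picked after seeing their values. Replicates differed beyond sampling noise, with chi-square per degree of freedom from 15.7 to 191 between mice of a group, and each label names a separate mouse. The tests were checked on simulated data.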

Additional observations from a re-analysis of the deposited data

Results flagged for a closer look

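In groups of 4 mice, 30 sets of values (10 members in 3 groups) were examined for a mouse far from the others, meaning that its gap to the nearest mouse exceeded 0.829 of the group's range. For independent sets of normally distributed values chance gives about 1 in 20, and 4 were found, all in D9 or D62. The sets here share the same mice and hold correlated genes, so that rate cannot be set against the 4. In Low Control, mouse D9 was far above the others in Clock (58.2 CPM, gap 0.886 of the range) and Cry2 (338 CPM, 0.890), and far below them in Per3 (15.8 CPM, 0.836). In High Run, mouse D62 was far above the others in Cry2 (234 CPM, 0.839). High Control, with 3 mice, was not examined.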

How the results depend on the processing

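The number of members called was 0 in every comparison under every alternative run. At an unadjusted p under 0.05, the 4 members of Low Run against Low Control became 0 with voom and 5 without the count filter, and between 0 and 5 with 1 mouse left out (0 without D9, 0 without D66, 1 without D57). The shares of all genes at that p in these fits are not given here, so these counts have no background. DESeq2, RLE normalization, no count filter and the fit to only the 2 groups compared turned no direction. With voom and quality weights, the log2 fold changes that turned were Per2 at 0.00982, Per3 at -0.11 (Low Run against Low Control), and Arntl at -0.0957, Clock at -0.0767, Dbp at 0.15 (High Run against High Control), and Npas2 at 0.19, Per1 at 0.16, Nr1d2 at -0.00212, Dbp at -0.11 (High Control against Low Control), and Nr1d1 at 0.23 (High Run against Low Run). Without D9 and D62, the log2 fold changes that turned were Per3 at -0.21 (Low Run against Low Control), and Arntl at -0.34, Clock at -0.13, Npas2 at -0.25, Dbp at 0.26 (High Run against High Control), and Dbp at 0.13 (Frailty × Run interaction), and Arntl at 0.0568, Per1 at 0.0957, Nr1d1 at 0.00717, Nr1d2 at -0.0141, Dbp at -0.23 (High Control against Low Control), and Per2 at -0.00151, Nr1d1 at 0.0125 (High Run against Low Run). In Low Run against Low Control, with each mouse left out in turn, Nr1d2 ran from -0.16 to 0.038, Per2 ran from -0.31 to 0.0887, Per3 ran from -0.21 to 0.16. In High Run against High Control, with each mouse left out in turn, Arntl ran from -0.34 to 0.71, Clock ran from -0.13 to 0.29, Dbp ran from -0.34 to 0.26, Npas2 ran from -0.26 to 0.55, Per1 ran from -0.48 to 0.17, Per2 ran from -0.0869 to 0.61, Per3 ran from -0.0112 to 0.40. In Frailty × Run interaction, with each mouse left out in turn, Nr1d1 ran from -0.24 to 0.49, Nr1d2 ran from -0.23 to 0.00416, Per3 ran from -0.0523 to 0.41. In High Control against Low Control, with each mouse left out in turn, Arntl ran from -1.35 to 0.0563, Dbp ran from -0.23 to 0.65, Nr1d1 ran from -0.51 to 0.22, Nr1d2 ran from -0.0788 to 0.16, Per1 ran from -0.56 to 0.0954, Per2 ran from -0.65 to 0.0482, Per3 ran from -0.26 to 0.20. In High Run against Low Run, with each mouse left out in turn, Nr1d1 ran from -0.18 to 0.20, Nr1d2 ran from -0.19 to 0.0144, Per2 ran from -0.14 to 0.26, Per3 ran from -0.0521 to 0.37. None of these values passed the threshold before or after, and the cause was not tested. No Pearson's r with Arntl turned, whereas Spearman's rho of Cry2 went from 0.325 to -0.0385 without D9 and D62. On deviations from group means Per1 (0.669), Cry2 (0.745) and Nr1d1 (0.551) no longer passed, and without D9 and D62 neither did Per1 (0.315), Per3 (-0.567) and Cry2 (0.0813). With 1 mouse left out, r ran from 0.54 to 0.77 for Per1 and 0.54 to 0.83 for Cry2 (both lost without D9) and from 0.47 to 0.69 for Nr1d1 (lost without D9 or D23). No paired analysis was possible because the groups share no replicate numbers. Depth limits Npas2 most, with 1 to 44 counts per mouse, and 3 or 4 mice per group limit all members.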
